A study of Mus musculus with 28 samples.

Results

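Of 32703 merged regions of acetylated lysine 27 of histone H3 (H3K27ac) in mouse lung adenocarcinoma cells, 578 had a peak in 0 of 3 libraries of cells sensitive to PD-1 blockade and in at least 7 of 9 libraries of resistant cells. Peaks of all 12 H3K27ac lists that shared at least 1 base were joined into regions, and a region counted as present in a library that had a peak in it. These 578 regions were chosen by H3K27ac peak calls alone, so their absence from sensitive cells and their presence in resistant cells are the choice itself and not a result. The sensitive cells (Sen) are labelled wild-type. The first resistant group (Res) is also wild-type and, per its description, had been exposed to PD-1 inhibitors. A second resistant group (Res_Ctrl) has the genotype Control, and the last (Res_shFabp7) has the genotype shFabp7 knockdown, a short hairpin RNA against the fatty acid binding protein Fabp7. All 4 groups share the tissue label lung adenocarcinoma and grew in culture without immune cells named in the labels. Each group gave 3 biological replicates for H3K27ac and 3 for acetylated lysine 9 (H3K9ac). Whether the resistant cells are 1 clone or a pool is not given in the sources used here, so resistance, the clone and drug exposure cannot be told apart between Res and Sen.

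H3K27ac marks nucleosomes beside active promoters and enhancers, where histone acetyltransferases such as p300 are recruited by transcription factors. H3K9ac lies mainly at active promoters. An acetylated region seen in one cell state and missing from another is widely used as a map of candidate regulatory sites that differ between the states. PD-1 is an inhibitory receptor of T cells, and antibodies against it release T cell killing of tumour cells.

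Of the 578 regions, 108 covered a promoter window, that is, the bases from 250 before to 50 after an annotated start of a protein-coding gene, and these promoters belonged to 110 genes. Promoters of 6 genes are printed because the values described here turn on them. Klhl1 had the highest H3K27ac of all 578 regions when ranked by the weakest of the 9 resistant libraries. Jak1, Leprot and Pgm1 stood in 1 stretch of chromosome 4, Bst2 in a dense group on chromosome 8, and Ptgr1 had less H3K27ac with the Fabp7 hairpin. Jak1 and Ptgr1 were picked after their values were seen. Each promoter is written 5′ to 3′ on the strand of its gene, from RefSeq's table for GRCm38.p6, the build mm10. Capitals mark the letters of a TATA box (TATAAA), here 44 bases after the annotated start, in Klhl1 (chr14:96518985-96519284, minus strand) and a cyclic AMP response element (TGACGTCA) in Jak1 (chr4:101265174-101265473, minus strand). They mark GC boxes (GGGCGG, either strand) in Leprot (chr4:101647533-101647832, plus strand) and Pgm1 (chr4:99929201-99929500, plus strand). In Bst2 (chr8:71537423-71537722, minus strand) they mark a pair of overlapping matches to the interferon-stimulated response core, and in Ptgr1 (chr4:58987029-58987328, minus strand) a C/EBP-ATF element (TGATGNAA).
Klhl1: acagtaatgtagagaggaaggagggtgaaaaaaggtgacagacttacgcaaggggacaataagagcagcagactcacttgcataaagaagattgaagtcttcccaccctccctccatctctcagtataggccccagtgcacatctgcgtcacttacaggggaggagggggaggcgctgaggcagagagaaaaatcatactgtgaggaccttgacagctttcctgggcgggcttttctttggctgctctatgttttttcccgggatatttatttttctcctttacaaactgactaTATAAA
Jak1: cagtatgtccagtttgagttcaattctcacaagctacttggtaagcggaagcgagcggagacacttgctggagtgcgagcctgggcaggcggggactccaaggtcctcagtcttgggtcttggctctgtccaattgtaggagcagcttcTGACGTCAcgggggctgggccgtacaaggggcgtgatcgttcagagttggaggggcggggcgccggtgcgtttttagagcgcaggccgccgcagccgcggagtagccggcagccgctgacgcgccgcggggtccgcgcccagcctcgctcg
Leprot: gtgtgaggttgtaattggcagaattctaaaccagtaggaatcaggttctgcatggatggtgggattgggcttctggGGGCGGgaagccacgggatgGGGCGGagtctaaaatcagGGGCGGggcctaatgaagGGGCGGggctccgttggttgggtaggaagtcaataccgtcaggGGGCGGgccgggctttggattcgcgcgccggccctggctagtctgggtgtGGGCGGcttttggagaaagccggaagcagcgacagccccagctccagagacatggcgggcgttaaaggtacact
Pgm1: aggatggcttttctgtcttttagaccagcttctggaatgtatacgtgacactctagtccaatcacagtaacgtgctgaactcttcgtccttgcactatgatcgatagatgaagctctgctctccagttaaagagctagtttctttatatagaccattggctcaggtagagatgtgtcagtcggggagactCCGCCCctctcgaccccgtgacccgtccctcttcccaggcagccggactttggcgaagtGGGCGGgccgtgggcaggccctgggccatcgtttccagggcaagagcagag
Bst2: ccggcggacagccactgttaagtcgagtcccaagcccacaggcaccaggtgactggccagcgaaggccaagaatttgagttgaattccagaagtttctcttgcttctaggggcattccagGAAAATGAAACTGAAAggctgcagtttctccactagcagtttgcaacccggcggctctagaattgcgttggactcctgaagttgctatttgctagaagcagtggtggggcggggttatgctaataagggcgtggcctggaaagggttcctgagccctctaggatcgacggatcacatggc
Ptgr1: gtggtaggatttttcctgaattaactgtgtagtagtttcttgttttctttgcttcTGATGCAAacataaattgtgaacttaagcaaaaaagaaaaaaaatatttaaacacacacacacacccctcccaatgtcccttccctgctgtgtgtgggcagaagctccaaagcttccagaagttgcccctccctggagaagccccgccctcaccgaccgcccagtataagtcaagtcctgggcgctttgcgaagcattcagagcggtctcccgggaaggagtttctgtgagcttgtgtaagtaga

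The 133 promoter windows of these 110 genes had a median GC content of 62.3%, close to the 62.7% of promoters on regions with a peak in all 12 libraries, with fewer CpG pairs for that composition. The median ratio of observed to expected CpG was 0.704, against 0.82 in those constant promoters and 0.567 in all 21262 protein-coding windows. It was much the same, 0.712, in the 145 windows on regions with 1 Sen peak and at least 7 resistant peaks. Motifs were searched on both strands, and a match describes letters only. The ETS motif CCGGAAG is bound by a family common at housekeeping promoters. It stood in 8.27% of the 133 windows, in 21.4% of the constant ones, in 11.6% of all and in 11.0% of the 145. The C/EBP-ATF element TGATGNAA, through which amino acid shortage acts, stood in 9 of 133 windows (6.77%), in 1.8% of the constant ones and in 3.6% of all. Among the 145 windows on regions with 1 Sen peak and at least 7 resistant peaks it stood in 1 (0.69%). The genes with it were Adck1, Adcy7, Calcrl, Me3, Ptgr1, Rapgef2, Sfxn4 and Synrg, and Rapgef2 was counted through a pair of overlapping windows. GC boxes stood in 66.2% of the 133 windows, 69.6% of the constant ones, 63.4% of the 145 and 46.2% of all. In the same order, the TATA box stood in 4.51%, 5.85%, 6.9% and 12.6%. The cyclic AMP element stood in 3.01%, 3.66%, 2.76% and 2.23%, and the interferon core in 2.26%, 2.67%, 2.07% and 3.35%. For these motifs the 133 windows were near the constant ones and the 145, so nothing particular to the 133 is read from them. Of the 110 genes, 76 had only 1 annotated window, which lay on these regions by the choice of genes. Counting these 76, 91 had all their annotated windows on these regions. Of the 34 genes with more windows, only Cds2 and Fam222b had another start on a region found in all 3 Sen libraries.

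In H3K27ac, Sen had 15856 to 23348 peaks per library with 2.24 to 5.91 M tags (M, 1e6) inside them, and the resistant groups 19811 to 28934 peaks with 3.7 to 10.5 M. The first Sen library was the shallowest, and Res_shFabp7 replicate 3 (10.5 M) and Res replicate 1 (7.35 M) were the deepest. As a check of the labelled tissue, 6 of 8 epithelial markers had an H3K27ac peak in all 12 libraries, while the lung lineage factor Nkx2-1 had one in 0 and Epcam in 1. Of 6 immune markers Ptprc, Cd3e and Tyrobp were at 0, Spi1 had a peak in 8 libraries, and Cd14 and Cd68 were present in all 12. Of 4 fibroblast markers Col1a1 had a peak in 11 libraries, Col1a2 in the 3 Res libraries alone, Dcn in 1 and Pdgfra in 0. All 3 of 3 endothelial markers were at 0. Fabp7 itself had no peak of either mark in 24 libraries, so acetylation there does not check the knockdown.

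Among the 578 regions, 172 had a peak in all 9 resistant libraries, 164 in 8 and 242 in 7. Peaks were called on 557, 495 and 496 of them in the 3 Res libraries, on 490, 372 and 516 in Res_Ctrl, and on 492, 563 and 573 in Res_shFabp7. The second Res_Ctrl library, with 3.7 M tags in peaks, had the fewest, and the deepest Res_shFabp7 library the most. The number of regions depends on single libraries, in part by the rule itself. With 7 resistant peaks still required, leaving out a resistant library loses regions that had just 7, and leaving out a Sen library adds regions. Without the second Sen library 1064 regions would meet the rule, and without the first Res library 358. Without the second Res_shFabp7 library 347 would, and without the third 341; the first Sen library changed little (588 without it). Levels are tags of a region's peaks per 1e6 tags in the regions with a peak in all 12 libraries of that mark, after TMM scaling (CPM). Where sets of regions are compared, a region's level is its median over the resistant libraries that had a peak in it. The 242 regions present in 7 libraries had a median of 21.96 CPM, the 462 with no Sen peak and 6 resistant peaks 22.81, and the 616 with 1 Sen peak and at least 7 resistant peaks 26.83, so levels on either side of the threshold were close.

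**Figure D1:**
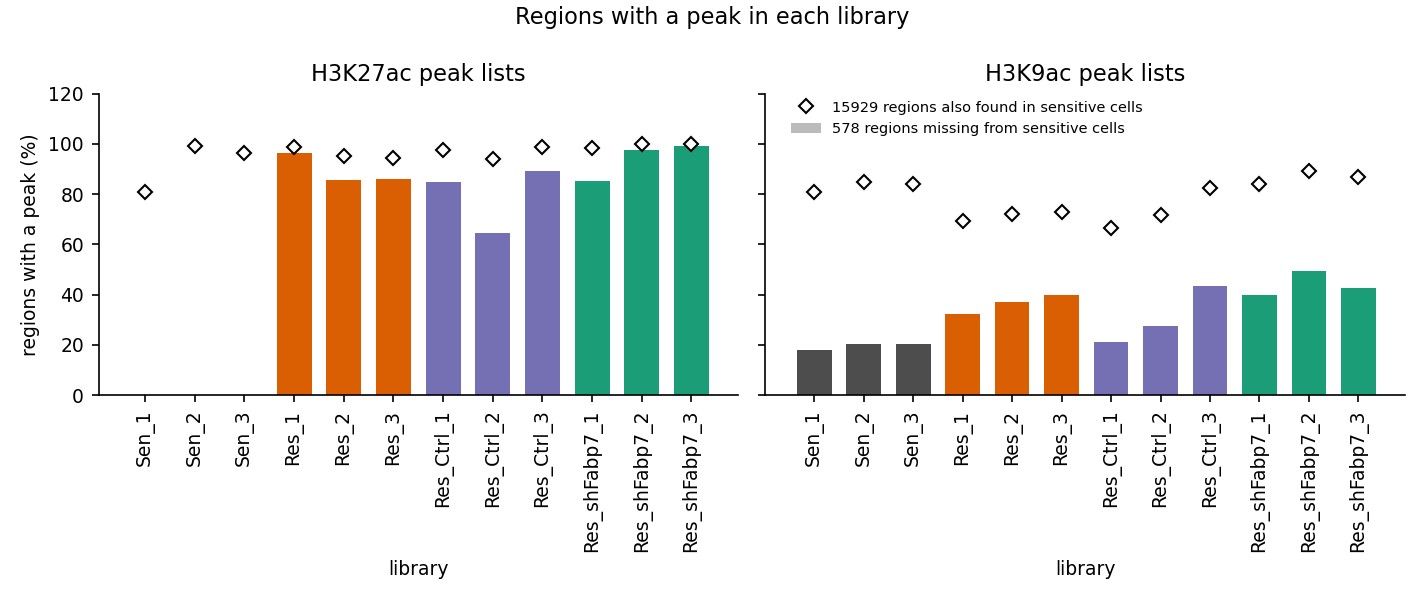
Percent of regions with a peak in each library (vertical axis) for H3K27ac (left) and H3K9ac (right). Bars are the 578 regions, coloured by group, and diamonds the 15929 regions with at least 7 resistant peaks that also had a Sen peak. H3K27ac bars in Sen are 0 by the rule; in H3K9ac, which the rule did not use, the Sen bars stand at 17.99 to 20.42% and the resistant ones at 20.93 to 49.48%.

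The 578 were weaker, shorter and farther from promoters than other regions common in resistant cells, as were the regions just past the rule. Their median level was 24.42 CPM and their median length 2645.5 bases, against 52.87 CPM and 3563 bases for the 15929 regions that met the resistant condition and had a Sen peak; the median length of all 32703 regions was 2642 bases, close to theirs. A promoter window lay in 19.01% of 568 (10 on chromosome 18 were not assessed), against 46.19% of the comparison set; 47.36% lay within a gene away from its start and 33.63% between genes. The median distance to a protein-coding start was 26.4 kb, and 4.41 kb in the comparison set. The 616 regions with 1 Sen peak and at least 7 resistant peaks were alike, with a median length of 2777.5 bases, 20.23% on a promoter window and 23.3 kb to a start. The nearest Sen peak was 14.6 kb away at the median, within 5 kb for 153 regions and over 100 kb for 65. In the Sen libraries the 5th percentile of called regions was 21.88, 14.04 and 16.86 CPM. The median level over the resistant libraries with a peak exceeded these in 376, 577 and 528 of the 578. Only the shallow first Sen library thus had many members below that level.

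Ranked by its lowest resistant library, the strongest region held the promoter of Klhl1, a kelch protein known from the brain (chr14:96514321-96522104). Its H3K27ac was 73.29, 72.66 and 70.36 CPM in Res. It was 113.3, 135.3 and 130.7 in Res_Ctrl and 142.3, 142.0 and 146.2 in Res_shFabp7. Res was thus lower than the other resistant groups and did not overlap them, and the nearest Sen peak of H3K27ac lay 159.0 kb away. A region between genes nearest to Msrb3, a methionine sulfoxide reductase (chr10:120644266-120649034), ran from 69.18 to 119.1 CPM, with the 3 Res libraries highest. Next came a region inside Nfia, a transcription factor of the nuclear factor I family (60.18 to 164.3 CPM), and the promoters of the docking protein Gab1 (58.79 to 80.98) and of the nuclear receptor Nr2f1 (58.1 to 78.91). The 3 resistant groups overlapped at Gab1, while at Nr2f1 the Res libraries (63.36 to 78.91) lay above those of Res_shFabp7 (58.23 to 59.2). The list of 10 went on with a region inside Bmp7, a ligand of the TGF-beta family (51.22 to 143.5), the promoter of Cachd1, a calcium channel modulator (50.64 to 82.27), regions nearest to Gm51579 (48.16 to 102.7) and Actl7b (47.15 to 111.6), and one inside Apbb2, an adaptor of the amyloid precursor protein (45.56 to 64.25).

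**Figure D2:**
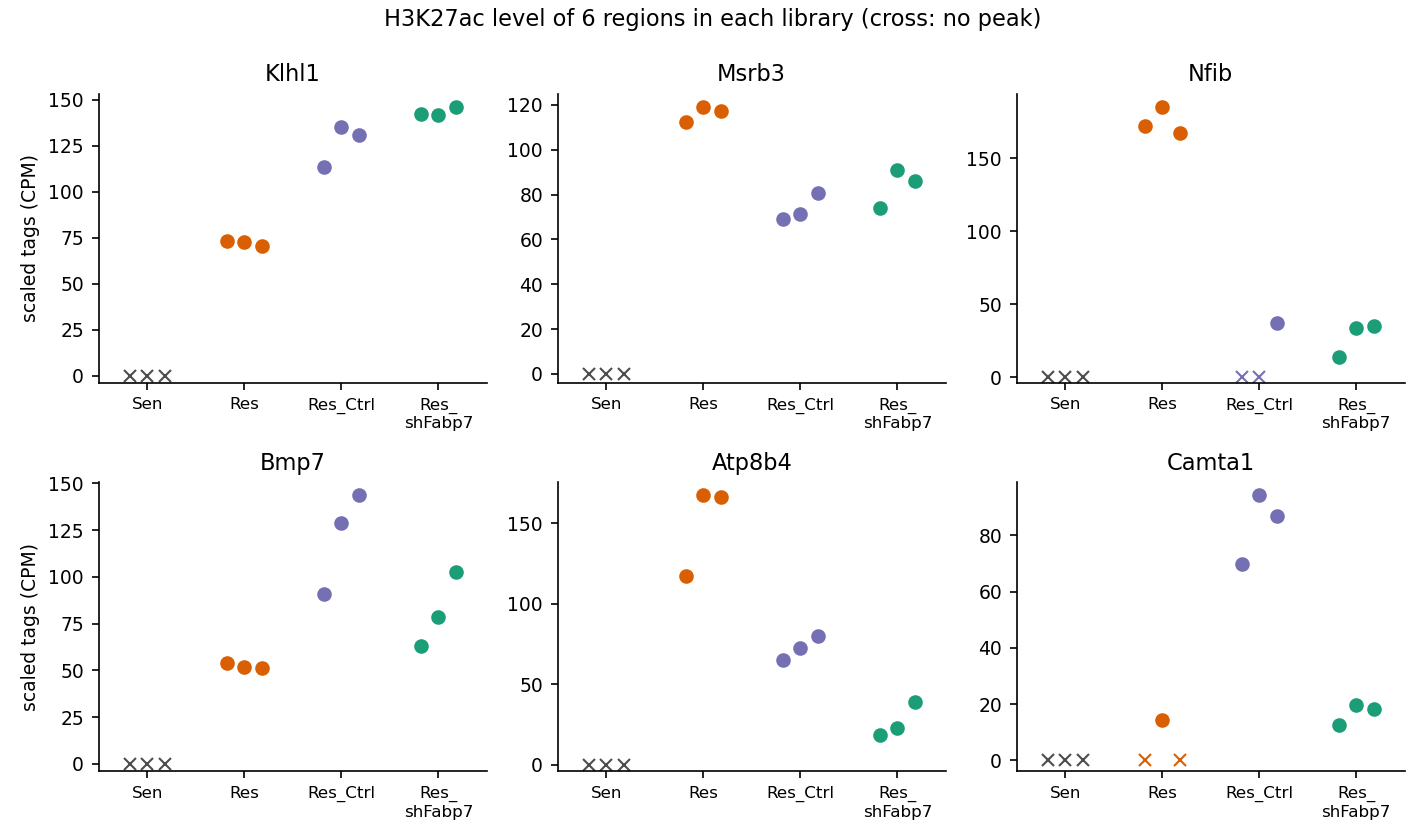
H3K27ac level (vertical axis, CPM) of 6 of the 578 regions, named by their gene, in each of the 3 libraries of Sen, Res, Res_Ctrl and Res_shFabp7 (horizontal axis). Each point is 1 library, in its replicate order, and a cross at 0 is a library without a peak; Klhl1 was lowest in Res among the resistant groups, Msrb3 and Nfib highest in Res, and Camta1 had 70.0 to 94.3 CPM in Res_Ctrl and a peak in 1 of 3 Res libraries.

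Some of the longest regions were several-fold stronger in Res than in the other resistant groups. The longest, 10509 bases inside Efnb2, the ligand ephrin-B2, spanned 35.81 to 138.9 CPM. A region of 9724 bases nearest to Nfib, another nuclear factor I gene, had 172.1, 185.2 and 167.1 CPM in Res. It had a peak in 1 Res_Ctrl library (37.29) and 13.64 to 35.04 CPM in Res_shFabp7. A region nearest to Cfap77 had 167.5, 219.0 and 198.9 CPM in Res, 10.25 in 1 Res_Ctrl library and 42.37 to 65.65 in Res_shFabp7. One inside Synj2, an inositol phosphatase, had 101.4, 117.4 and 172.0 CPM in Res and at most 29.13 in the others. Presence in 7 of 9 libraries therefore covers regions that differ several-fold among resistant groups. Rdh10, a retinol dehydrogenase, had the opposite order at its nearest region: 58.36 to 70.52 CPM in Res_Ctrl, 52.38 to 67.26 in Res_shFabp7, and 32.51 and 28.2 in the 2 Res libraries with a peak.

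Few genes of the 21 gene lists had one of these regions within 1 kb of an annotated end. The list of Wnt, Notch, Hedgehog and TGF-beta genes held one in 3 of the 28 genes with any region there that met the resistant condition (10.7%), against 1.66% of 10049 such protein-coding genes; no test was made, and the cytokine list had 2 of 22 (9.09%). The 3 were Tcf7, a transcription factor of Wnt signalling, the Notch ligand Jag2, and Wnt10b. Wnt10b had a pair of regions, at 77.31 to 92.97 and 57.12 to 76.31 CPM in Res, and at most 20.03 and 18.5 CPM in the other resistant libraries with a peak. Jag2 was even, at 13.67 to 30.09 CPM in 9 libraries. Immune genes with such a region were H2-K1, a class I antigen-presenting chain, Il15ra, the interleukin 15 receptor, the interferon-induced Bst2 and the chemokine Ccl17. Their levels were low: the highest in any library was 33.74 CPM at H2-K1, 25.84 at Il15ra, 31.25 at Bst2 and 39.63 at Ccl17. The stress enzyme Hmox1 and the transcription factor Klf2 completed the genes of the lists with a region at an end. Of 13 fatty acid uptake, binding and PPAR genes with an eligible region, 0 had a member at an end; the fatty acid transporter Slc27a1 had one inside the gene, and the lipid droplet coat gene Plin2 was the nearest gene of another. Genes with the most regions were Nfia with 5, and Arhgap10, Camta1, Jun, Mast4, Nfib and Tacc1 with 3 each.

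H3K9ac, measured in other libraries, was called in at least 1 library on 354 of the 578 regions (61.25%). Peaks of H3K9ac lay on 104, 118 and 118 of them in the 3 Sen libraries, 186, 213 and 230 in Res, 121, 159 and 250 in Res_Ctrl, and 231, 286 and 247 in Res_shFabp7. Every resistant library had more than every Sen library, while the first Res_Ctrl library was close to Sen. The Sen lists were not short: they held 15615 to 16457 H3K9ac peaks and 4.2 to 11.5 M tags in peaks, against 11771 to 18317 peaks and 2.57 to 7.19 M tags in the resistant ones. On the 15929 comparison regions, an H3K9ac peak was called on 80.98 to 84.76% in Sen, 69.27 to 72.95% in Res, 66.62 to 82.52% in Res_Ctrl and 83.83 to 89.25% in Res_shFabp7. In all, 224 of the 578 (38.8%) had H3K9ac in 0 libraries, 166 in resistant libraries only but in fewer than 7, and 57 (9.86%) in 0 Sen and at least 7 resistant libraries. Another 38 had it in 1 or 2 Sen libraries and 93 (16.1%) in all 3. In the comparison set 0.27% had H3K9ac in 0 Sen and at least 7 resistant libraries and 79.5% in all 3 Sen libraries. Among the 616 regions with an H3K27ac peak in 1 Sen library these shares were 2.27% and 28.2%.

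H3K9ac at promoters and elsewhere differed. Of the 108 promoter regions, 64 (59.3%) carried H3K9ac in all 3 Sen libraries although no H3K27ac peak was called there, and 17 (15.7%) carried it in 0 Sen and at least 7 resistant libraries. Within genes 47.2% and between genes 48.2% had no H3K9ac in any library. Among the 57 regions where both marks were missing from Sen and common in resistant cells, 23 had H3K9ac in all 9 resistant libraries. The promoter of Klhl1 was one. Its H3K9ac was 71.7, 73.3 and 85.9 CPM in Res, 121, 123 and 139 in Res_Ctrl, and 146, 145 and 142 in Res_shFabp7. The order of groups was that of its H3K27ac. The region near Msrb3 had 97.3 to 101 CPM of H3K9ac in Res, 57.3 to 67.8 in Res_Ctrl and 65.5 to 73.2 in Res_shFabp7. The promoter of Cgas, the cytosolic DNA sensor, was named after its values were seen, and an annotated end of Mto1 lay within 1 kb. This region had H3K9ac of 39.6, 34.5 and 30.1 CPM in Res and 26.8 to 33.7 in the other 6 resistant libraries. Its H3K27ac was weaker, at 12.35 to 20.21 CPM where called, in 7 of 9 libraries.

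Where H3K9ac could be tested, more of these regions were higher than lower in each resistant group against Sen. Levels were compared with edgeR's quasi-likelihood test over all regions with a peak in all 6 libraries of a comparison, and p-values were adjusted by Benjamini-Hochberg over all of them at 0.05. The H3K9ac libraries took no part in the choice, but they compare the same cells. A test against Sen needs H3K9ac peaks in all 3 Sen libraries, which lay on 93 of the 578. Of these 93, 64 covered a promoter, 22 lay within a gene and 6 between genes, so the counts describe mostly promoters. For Res against Sen 76 of the 578 regions could be tested; 55 were higher and 1 lower, against 54.3% called among all 11158 tested, 28.1% higher and 26.3% lower. The members' median log2 ratio was 0.893, and -0.014 over all. For Res_Ctrl against Sen 61 could be tested, and 49 were higher and 0 lower (33.6% of all 10953 called, 18.7% higher and 14.9% lower), with a median log2 ratio of 0.901. At an unadjusted p under 0.05 edgeR gave 1 lower, and DESeq2's adjusted test 1. For Res_shFabp7 against Sen 92 could be tested, and 46 were higher and 2 lower (30.9% of all 13717 called, 15.8% higher and 15.0% lower), with a median of 0.385. The 3 comparisons share the Sen libraries. In called H3K9ac regions the 5th percentile was 14.88 to 17.65 CPM in Sen. It was 20.33 to 23.06 in Res, 16.87 to 29.24 in Res_Ctrl and 12.5 to 15.09 in Res_shFabp7. Weak regions could thus enter the tests of Res and Res_Ctrl mainly where the resistant level was high. A region with H3K9ac in Sen and not in Res, as at Onecut3, was left out for Res, as were those without a Sen peak. The part of this limit in the counts was not tested. Regions with an H3K27ac peak in 1 Sen library, just past the rule, were higher in 46.9%, 45.2% and 24.3% of those tested.

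**Figure D3:**
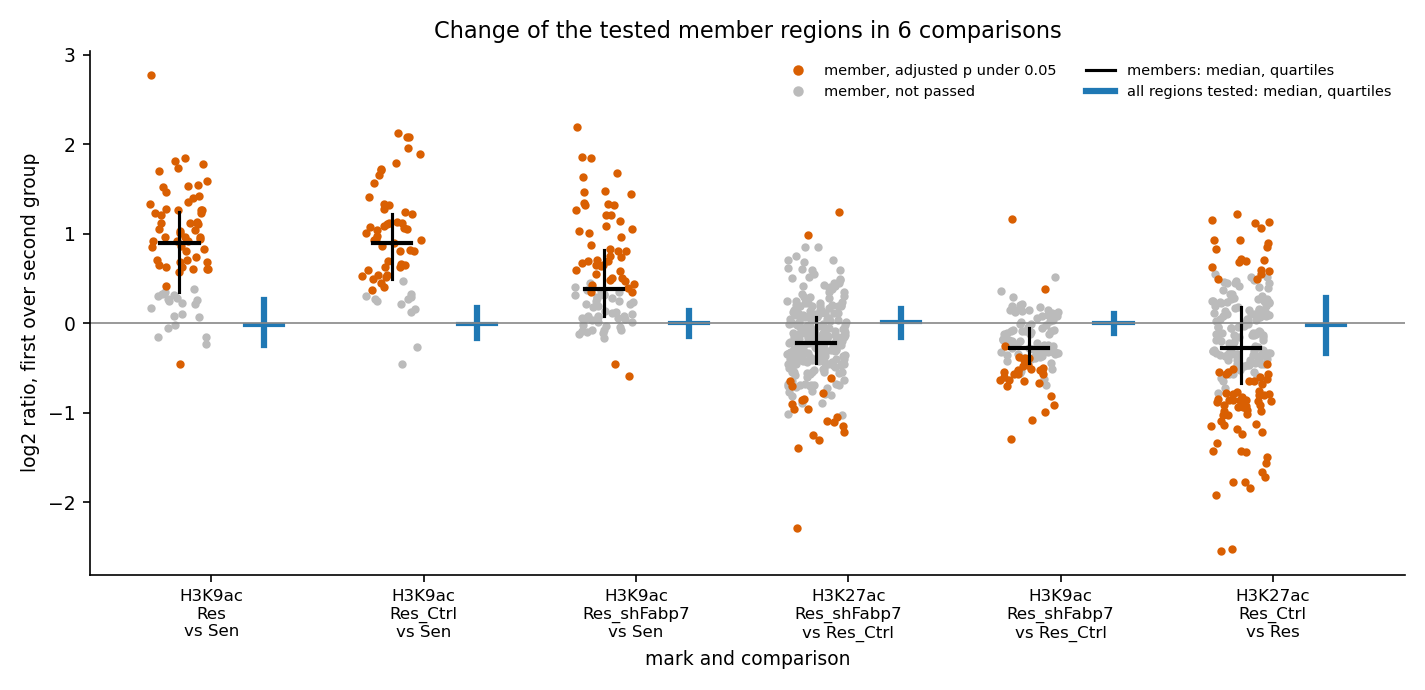
log2 ratio of levels (vertical axis) in 6 comparisons (horizontal axis) for each tested region of the 578. Orange points passed edgeR's adjusted p of 0.05, black lines give the median and quartiles of these regions and blue lines those of all regions tested; the medians of the first 3 comparisons were 0.893, 0.901 and 0.385 and of the last 3 -0.217, -0.273 and -0.273.

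The largest increase in Res and in Res_Ctrl was inside Nfia (H3K9ac region chr4:97750873-97753441); in Res_shFabp7 it was inside Gnas. H3K9ac was 14.3, 15.1 and 17.5 CPM in Sen, 107, 102 and 121 in Res, 62.6, 72.3 and 72.4 in Res_Ctrl, and 56.7, 57.7 and 56.2 in Res_shFabp7. All resistant libraries were above all Sen libraries, and Res was highest. The log2 ratio to Sen was 2.78 ± 0.11 in Res (edgeR adjusted p = 1.8e-08), 2.12 ± 0.13 in Res_Ctrl (5.1e-07) and 1.85 ± 0.12 in Res_shFabp7 (2.9e-07); errors are standard errors of the fit on 3 libraries a group. At the promoter of Leprot, which governs the surface level of the leptin receptor, Sen had 20.0, 20.6 and 20.6 CPM. Res had 76.4, 70.5 and 76.4, Res_Ctrl 61.0, 84.9 and 91.5, and Res_shFabp7 68.4, 75.0 and 77.6. The 3 resistant groups overlapped one another and not Sen, with log2 ratios of 1.85 ± 0.10, 1.96 ± 0.15 and 1.85 ± 0.09. Pgm1, phosphoglucomutase, went from 19.6 ± 2.94 CPM (SD, n = 3) in Sen to 55.9 ± 8.93, 84.8 ± 4.62 and 63.8 ± 2.11. A region inside Gnas, the stimulatory G protein alpha subunit (chr2:174293182-174296800), went from 22.5 ± 4.65 to 75.1 ± 9.22, 97.1 ± 7.36 and 106.0 ± 5.86. The Gnas locus has overlapping transcripts, so which of them the region serves is not known from these data. Jak1, the kinase of interferon and cytokine receptors, went from 22.2 ± 1.36 to 54.1 ± 3.82, 73.7 ± 8.29 and 56.0 ± 0.753 CPM.

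**Figure D4:**
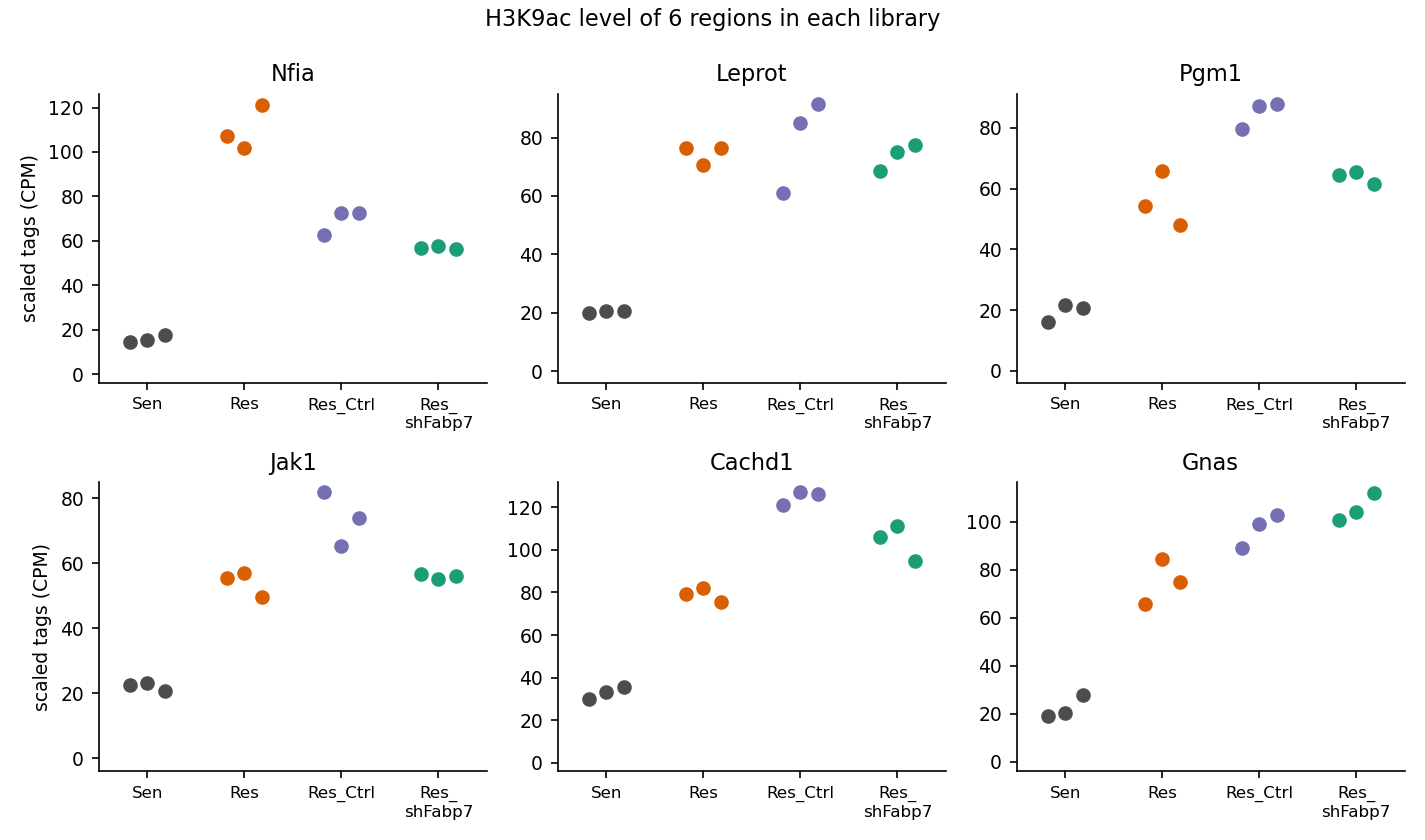
H3K9ac level (vertical axis, CPM) of 6 regions, named by their gene, in the 3 libraries of each group (horizontal axis). Each point is 1 library; the Sen libraries were lowest in all 6, at 14.3 to 17.5 CPM for Nfia, and Nfia was highest in Res while Pgm1, Cachd1 and Jak1 were highest in Res_Ctrl.

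Other regions differed in which of the 3 comparisons with Sen they passed. Zfp882, a zinc finger gene, was 3.5-fold higher in Res than in Sen (73.8 ± 2.01 against 20.4 ± 3.69 CPM, SD, n = 3) and also passed in both other comparisons (log2 ratios 1.56 ± 0.14 and 1.47 ± 0.13). Htra1, a secreted serine protease, had 70.3, 72.4 and 77.8 CPM in Res and 26.8, 19.9 and 18.9 in Sen (1.78 ± 0.14, adjusted p = 1.2e-06). Its Res_shFabp7 libraries, at 21.9 to 24.7 CPM, overlapped Sen (0.14 ± 0.16, adjusted p = 0.59), and 1 Res_Ctrl library had no peak. Tcf7 was 1.21 ± 0.11 higher in Res and 0.40 ± 0.13 in both of the other comparisons, and H2-K1 was 1.03 ± 0.18 higher in Res, 0.93 ± 0.13 in Res_Ctrl and 0.24 ± 0.14 in Res_shFabp7, where it did not pass (adjusted p = 0.23). Klf2 passed in all 3 (0.96, 1.11 and 0.59), Il15ra in Res and Res_Ctrl (0.63 and 0.54) and not in Res_shFabp7 (0.01), and Hmox1 in Res and Res_shFabp7 (1.23 and 0.74), the comparisons in which it could be tested. The regions that were lower were Gm5751 in Res (-0.45 ± 0.12) and the promoters of Etnk2, an ethanolamine kinase, and of the homeobox gene Meis3 in Res_shFabp7 (-0.59 ± 0.15 and -0.46 ± 0.15). With tags divided by the length of the called peaks (per called base), neither Etnk2 (-0.16) nor Meis3 (-0.18) passed. Meis3 also did not pass when Sen replicate 2 (-0.45) or 3 (-0.36) or Res_shFabp7 replicate 1 (-0.41) or 3 (-0.42) was left out.

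The 578 regions were uneven along the genome. As a share of the regions that met the resistant condition, they made up 6.65% on chromosome 8 and 6.46% on chromosome 4, against 3.5% overall and 2.04 to 4.17% on the other chromosomes. On chromosome 8 the regions with an H3K27ac peak in all 12 libraries were also higher in resistant cells, with a median log2 ratio of 0.453 over 701 regions. On chromosome 4 this median was 0.104 over 664 regions. The cause of these chromosome values was not tested. The densest groups were on these chromosomes too. A run of 4 in 84.598 kb lay at Plekha2 and Tacc1, and one of 3 in 45.217 kb held the promoters of Bst2 and Mvb12a and a region in Slc27a1. Runs of 3 lay at Arhgap10, a GTPase-activating gene, and at Caap1, Plaa and Ift74.

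**Figure D5:**
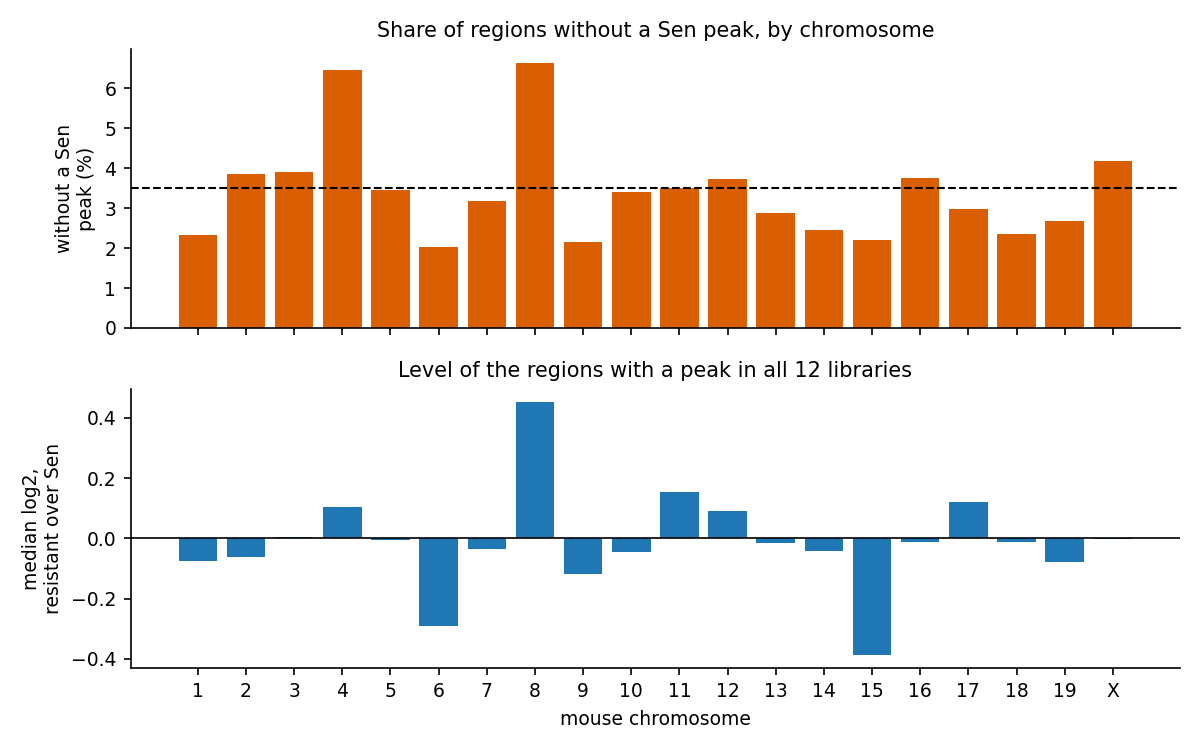
Top, percent of the regions with at least 7 resistant H3K27ac peaks that had no Sen peak, by mouse chromosome, with the overall 3.5% as a dashed line. Bottom, median log2 ratio of resistant to Sen libraries for the regions with a peak in all 12; chromosome 8 is high in both panels (6.65% and 0.453), and chromosome 4 in the top one (6.46%) with 0.104 in the bottom one.

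One stretch of 8.02 Mb on chromosome 4 (chr4:94555496-102571689) held 22 of the 578. It runs from Caap1 to Pde4b, a cyclic AMP phosphodiesterase, and was picked out after its values were seen. Of 38 H3K27ac regions there with at least 7 resistant peaks, 22 had no Sen peak. The 22 lay at 13 named genes, among them Jun, the AP-1 factor (3 regions nearest to it), Nfia (5), the receptor Ror1 (2) and Jak1 (2), and 10 covered promoters. At the promoter of Jak1 the nearest Sen peak of H3K27ac was 977.1 kb away and at that of Leprot 1360 kb. Sen was not silent there in H3K9ac: of 31 H3K9ac regions with at least 7 resistant peaks 8 had no Sen peak. The 19 with a peak in all 12 libraries were all higher in resistant cells, at a median log2 ratio of 1.376 (0.093 to 2.33). The 7 H3K27ac regions in all 12 were higher too, by 0.446 at the median. The regions outside this stretch gave counts much like those of all. Higher in H3K9ac were 47 of 68 for Res against Sen, 41 of 53 for Res_Ctrl and 38 of 84 for Res_shFabp7. The all-region shares outside the stretch were 28.0%, 18.6% and 15.8%. Without chromosomes 4 and 8 the counts were 35 of 53, 28 of 39 and 26 of 67, with all-region shares of 25.1%, 12.5% and 11.7%.

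With the Fabp7 hairpin, more of the tested regions were lower than higher in H3K9ac, the mark that the choice did not use. Of 113 that could be tested in Res_shFabp7 against Res_Ctrl, 28 were lower and 2 higher, against 7.85% called among all 11115, 5.08% lower and 2.77% higher, with a median log2 ratio of -0.273 (0.008 over all). Regions with an H3K27ac peak in 1 Sen library leaned the same way: 12 of 111 were lower (10.8%) and 2 higher, with a median of -0.167. The members' count of lower regions was 17 without Res_Ctrl replicate 2 (15.0%, against 3.0% of all tested). It was 13, 10 or 9 without Res_shFabp7 replicate 1, 2 or 3 (11.5%, 8.85% and 7.96%, against 2.29%, 2.62% and 1.86% of all). Without chromosomes 4 and 8 it was 11 of 73 (15.1%, against 3.43% of all). The 5th percentile of called H3K9ac regions was 29.24, 25.04 and 16.87 CPM in Res_Ctrl and 15.09, 12.87 and 12.5 in Res_shFabp7. A test needs a peak in all 6 libraries, so weak regions entered mainly where Res_Ctrl was high. The part of this limit in the H3K9ac counts was not tested. In H3K27ac the peaks of these same libraries helped to choose the regions, so its counts describe them and support nothing. There 263 of the 578 could be tested; 18 were lower and 2 higher, against 3.83% called among all 16069 tested, 2.39% lower and 1.44% higher, with a median of -0.217 (0.009 over all). The regions with 1 Sen peak had 9 lower and 7 higher of 337, with a median of -0.107. With the replicate number as a block, which compares same-numbered libraries, 32 members were lower and 7 higher (12.2% and 2.66%, against 5.12% and 3.23% of all). The count of lower regions was 8 or 11 without Res_Ctrl replicate 2 or 3 (3.04% and 4.18%, against 0.722% and 1.13% of all tested). It was 10, 7 or 9 without Res_shFabp7 replicate 1, 2 or 3 (3.8%, 2.66% and 3.42%, against 1.05%, 0.753% and 0.697% of all). Per called base it was 54 (20.5%, against 5.82%), and without chromosomes 4 and 8 it was 8 (4.28%, against 1.67%). Res_shFabp7 held more tags in H3K27ac peaks (5.1 to 10.5 M) than Res_Ctrl (3.7 to 4.65 M), and a test needs a peak in all 6 libraries. H3K27ac peaks on the 578 had median levels of 20.95 to 21.19 CPM in Res_shFabp7 and 24.84 to 28.71 in Res_Ctrl; the part that depth has in these counts was not tested.

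The largest H3K27ac decrease among them was inside Camta1, a calmodulin-binding transcription activator (chr4:151471247-151475251). H3K27ac was 69.98, 94.33 and 87.11 CPM in Res_Ctrl and 12.67, 19.66 and 18.12 in Res_shFabp7. The groups lay far apart (-2.28 ± 0.18, adjusted p = 0.00027), and 1 Res library had a peak, of 14.19 CPM. Atp8b4, a phospholipid flippase gene, followed inside its body: 65.44, 72.46 and 80.28 CPM against 18.76, 22.71 and 39.33 (-1.39 ± 0.23, adjusted p = 0.01). Res stood above both, at 117.1 to 167.3 CPM. Next were Add3, an adducin of the membrane skeleton (-1.30 ± 0.20), and a region nearest to Ddr1, a collagen receptor kinase (-1.24 ± 0.29), whose call was lost when Res_Ctrl replicate 2 (-0.97) or Res_shFabp7 replicate 1 (-1.23) or 3 (-1.03) was left out. At the Ptgr1 promoter, an enzyme that reduces reactive lipid aldehydes and prostaglandins, H3K27ac was 27.78, 28.03 and 27.61 CPM in Res_Ctrl and 12.43, 12.03 and 12.75 in Res_shFabp7 (-1.15 ± 0.18, adjusted p = 0.0093). Its H3K9ac (28.1 ± 1.31 and 22.6 ± 3.93 CPM, SD, n = 3) did not pass (adjusted p = 0.24). One region that rose was inside Flt1, a receptor of VEGF. Flt1 (1.25 ± 0.29, adjusted p = 0.041) did not pass without Res_Ctrl replicate 1 (1.12) or 3 (0.97), or without any one of the Res_shFabp7 libraries (1.14 to 1.32).

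In H3K9ac the hairpin's largest decreases were inside Adgra2, an adhesion receptor that takes part in Wnt signalling, and inside Syne1, a nuclear envelope protein. Adgra2 had 41.6, 42.1 and 51.9 CPM in Res_Ctrl and 21.9, 18.6 and 15.5 in Res_shFabp7 (-1.29 ± 0.16, adjusted p = 0.00053). Syne1 fell from 40.5 ± 4.65 to 18.6 ± 5.74 CPM (-1.08 ± 0.20). The promoter of Sipa1l2, a Rap GTPase-activating gene, fell from 62.6 ± 2.2 to 31.3 ± 2.05, and that of Meis3 from 39.0 ± 3.12 to 20.5 ± 2.24. The 28 also held the promoters of H2-K1 (-0.70 ± 0.12), Bst2 (-0.54 ± 0.15), Klf2 (-0.52 ± 0.14), Jak1 (-0.39 ± 0.10) and Pgm1 (-0.41 ± 0.08). H2-K1 had 41.2, 40.7 and 41.4 CPM in Res_Ctrl and 25.3, 24.9 and 25.4 in Res_shFabp7, close to the 18.4 to 23.3 of Sen. In this mark 1 region of Nfia rose (0.38 ± 0.11, edgeR adjusted p = 0.045), whose adjusted p was 0.06 with DESeq2, 0.083 with the replicate block, and 0.068 to 0.17 without Res_Ctrl replicate 2 or 3 or any one Res_shFabp7 library. The strongest regions at Klhl1, Msrb3, Gab1 and Nr2f1, and Leprot, did not pass in either mark (log2 ratios of -0.30 to 0.20).

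Res_Ctrl and Res, the resistant groups without the Fabp7 hairpin, were compared in H3K27ac, whose peaks in these libraries helped to choose the regions; the counts are a description. Of 210 that could be tested in Res_Ctrl against Res, 61 were lower and 20 higher, against 37.2% called among all 13684 tested, 20.3% lower and 16.9% higher, with a median log2 ratio of -0.273. The shares, 29.0% lower and 9.52% higher, were near those of regions with 1 Sen peak (27.2% and 10.3%), and nothing particular to the 578 is read from them. Per called base the median was -0.029, with 43 lower and 21 higher. Decreases were large at a region nearest to Plin2 (chr4:86680911-86687792), where Res_Ctrl had 23.24 to 25.34 CPM and Res 124.3 to 154.6 (-2.52 ± 0.13, adjusted p = 2.9e-06). A region nearest to Susd1 fell by 2.54 ± 0.16 on the log2 scale, though not per called base (-0.25), and regions inside Galk2, of the galactokinase family, and Cdc45, of the replicative helicase, by 1.92 ± 0.14 and 1.84 ± 0.18. Increases were at the Bmp7 region, with 51.22 to 54.13 CPM in Res and 90.55 to 143.5 in Res_Ctrl (1.22 ± 0.16), at a region nearest to Jun (1.13 ± 0.17), at one nearest to the cohesin gene Smc3 (1.11 ± 0.21), and inside the mitochondrial carrier gene Slc25a29 (1.15 ± 0.25; 0.15 per called base, which did not pass). Of the 5 Nfia regions 4 could be tested, and all 4 were lower in Res_Ctrl (-0.97 to -0.60). The genotype and the exposure to PD-1 inhibitors named for Res cannot be told apart in this comparison.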

How the data were processed

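ChIP-seq libraries were made from cells fixed in 1% formaldehyde for 10 minutes and read as single 50-base reads, 53 to 158 M per sample, per the labels' protocols. Bowtie 1.1.2, MACS 1.4.2 and mm10 are named in the submitters' processing notes. The authors deposited 1 peak list per library, with whole-number tag counts per peak, a score and a fold ratio, per the file headers; the deposited score's lowest value, 50.0, is a p of 1e-05. Use of the 4 inputs by the caller is not given in the sources used here. Members and gene lists were chosen with earlier results of these data known. Named regions were the 10 strongest and 10 longest, those within 1 kb of a list gene's end, the 5 densest groups, and up to 4 called per comparison and direction by size; some regions that these rules select are not reported here. A region without a peak has no deposited count, so tests used regions with a peak in all 6 libraries, with edgeR 4.0.16 (R 4.3.3), TMM scaling and no further filter; DESeq2 1.42.0 was an alternative. The method was tested on simulated data. The paired fit is given for H3K27ac of Res_shFabp7 and Res_Ctrl, where deviations of same-numbered libraries all correlated above 0.1 (0.356, 0.125 and 0.233 over 16069 regions). Even so, Res_shFabp7 replicate 2 correlated more with Res_Ctrl replicate 3 than with Res_Ctrl replicate 2. The labels do not say what a number shares. Tags in peaks are not sequencing depth, and p-values measure the spread between replicates, whose separate cultures the labels do not describe. Gene ends and names come from RefSeq's GRCm38.p6 table, without strand; a region named for the nearest gene need not act on it.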

Additional observations from a re-analysis of the deposited data

How the results depend on the processing

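The number of regions that met the rule, 578, ranged from 341 to 1064 when 1 library was left out and 7 resistant peaks were still required. It was 172 with all 9 resistant libraries required, 167 with a peak p of at most 1e-10 in the resistant lists only, 379 with equal numbers of peaks per list, and stayed within 1.5 times in the other settings tried. With peaks at p of at most 1e-10, fewer regions could be tested. In H3K9ac against Sen, 24 were then higher and 0 lower in Res, 14 higher in Res_Ctrl, and 23 higher and 1 lower in Res_shFabp7. For Res_shFabp7 against Res_Ctrl 8 of 98 were lower in H3K27ac (8.16%, against 2.43% of all). In H3K9ac 1 of 51 was higher and 20 lower (1.96% and 39.2%, against 2.34% and 5.12% of all). For Res_Ctrl against Res 10 of 74 were higher and 19 lower (13.5% and 25.7%, against 17.5% and 20.0% of all). Other tools and scalings moved small counts. DESeq2 called 1 lower in H3K9ac of Res_Ctrl against Sen and 7 higher in H3K27ac of Res_shFabp7 against Res_Ctrl. Per called base these were 0 lower for Res_shFabp7 against Sen, and 1 higher and 54 lower in H3K27ac with the hairpin. With the replicate block 7 were higher and 32 lower in H3K27ac with the hairpin, and 1 higher in H3K9ac (19 lower); the block changed no other count of calls by over 1.5 times, and for the other comparisons same-numbered libraries did not all deviate together (correlations from -0.101 to 0.354).

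Leaving out 1 library in turn gave, in H3K9ac, 1 to 2 lower for Res against Sen, 0 to 1 lower for Res_Ctrl, and 1 to 2 lower for Res_shFabp7. With the hairpin it gave 1 to 5 higher and 7 to 19 lower in H3K27ac, and 1 to 3 higher and 9 to 24 lower in H3K9ac. Lower members were then 2.66 to 7.22% of those tested in H3K27ac and 7.96 to 21.2% in H3K9ac. Over all regions tested the lower share was 0.697 to 3.37% and 1.86 to 5.36%. Chosen after seeing the data, leaving out the stretch of chromosome 4 left 1 higher in H3K9ac with the hairpin (1.04%, against 2.77% of all). Leaving out chromosomes 4 and 8 left 35, 28 and 26 higher in H3K9ac against Sen (all-region shares 25.1%, 12.5% and 11.7%). With the hairpin it left 8 lower in H3K27ac (4.28%, against 1.67%), and 1 higher and 11 lower in H3K9ac (1.37% and 15.1%, against 3.13% and 3.43%). For Res_Ctrl against Res it left 13 higher (8.78%, against 15.2%). These settings hold fewer regions. Apart from such fewer regions, the cause was not tested. Of 398 values of named regions under other settings 374 kept their direction and call, 24 kept the direction and no longer passed, and 0 reversed. Absence of a peak is not absence of acetylation. Over the resistant libraries with a peak, 376 of 578 members had a median level above the 5th percentile of the first, shallowest Sen library. For the other Sen libraries these were 577 and 528.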
